A study of Trichechus manatus latirostris with 11 samples.

Results

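Neutrophils store their antimicrobial and matrix-degrading proteins in granules that are filled one after another while the cell matures. Primary (azurophil) granules hold myeloperoxidase, secondary (specific) granules hold iron- and peptidoglycan-binding proteins and collagenase, and tertiary (gelatinase) granules hold gelatinase and are released most readily. Most granule genes are transcribed in precursor cells of the marrow, while some, such as the gelatinase gene, are also transcribed in circulating cells. PADI4 is not a granule protein. It converts arginine in histones to citrulline and takes part in the release of neutrophil extracellular traps.

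The genes described here are 7, namely MPO (primary granule), MMP8, LCN2 and PGLYRP1 (secondary granule), MMP9 and MMP25 (tertiary granule) and PADI4. They were chosen by symbol, and each was found in exactly 1 of the 15298 rows of the deposited table, through the RefSeq transcript record of the TriManLat1.0 assembly without its version number. The RefSeq table gave gene spans from 3570 bp for LCN2 to 31059 bp for PADI4 and named no chromosome or scaffold, so no coordinates are given.

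RNA was sequenced from the buffy coat, the white cell layer of centrifuged blood, of adult Florida manatees. The red tide group comprised 4 animals under treatment for red tide illness at Lowry Park Zoo, some sampled on arrival and others after a week of treatment. The control group comprised 7 animals without known exposure: 4 from Crystal River, 2 from the Indian River Lagoon and 1 at Lowry Park Zoo that was recovering from pneumonia. Per the methods of the study, red tide buffy coats were frozen at once, whereas RNAlater is described for each animal, and 1 female was included in each group. The groups therefore differed in place, season, care and possibly storage, and the part of exposure and of these factors in any difference cannot be told apart.

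The deposited table holds group means of normalized counts (reads of a gene divided by the size factor of the library) and no value of a single sample. In each row the overall mean was the sum of 4 parts of the first mean and 7 parts of the second, divided by 11. The first mean therefore averaged 4 libraries, the number of red tide animals, and the second averaged 7 libraries, the number of controls. The columns do not name their groups. The deposited comparison is named for red tide first and 7 others second, which goes with these numbers. Read this way, however, the MMP9 ratio runs opposite to the direction that the study gives for this gene. Which mean belongs to the red tide animals is therefore uncertain, the means are called the 4-library mean and the 7-library mean, and no ratio below should be read as higher or lower in red tide. Because reads are whole numbers, and 1 read adds the same amount to the mean for every gene of a library, the reads of single libraries were recovered where 1 combination alone gave the mean. This held for the 4 libraries of 6 of the 7 genes and for all 11 libraries of MPO and PGLYRP1. Size factors were 0.372, 0.620, 1.03 and 1.56 for the 4 libraries and ran from 0.702 to 1.73 for the 7 libraries. Libraries are named by these factors because they cannot be linked to animals. Where the 7 libraries are known only as a mean, no error of the difference between groups can be given and no test was made.

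In 6 of the 7 genes the 7-library mean exceeded the 4-library mean by 2-fold or more, against 10.4% of all rows. The exception was MPO, 1.90 times higher in the 4-library mean. With a pseudocount of 1 the count was 5, since PGLYRP1, a gene with few reads, fell under 2-fold. The 7 genes were chosen with earlier results of these data known, so counts beside the share of all rows are a description and not a test. At 4-fold, MMP9 and PADI4 qualified, 2 of 7 genes against 2.27% of all rows and 1.41% of those with an overall mean of at least 10. No gene had a 4-library mean at least 2 times the 7-library mean, which 23.9% of all rows had. Ratios are given on the log2 scale as 4-library over 7-library mean, so a negative value is a higher 7-library mean, and their median was -1.44 for the 7 genes and 0.14 for all rows. In bulk RNA, fewer cells of a type and less RNA per cell cannot be told apart. Rows with an overall mean below 10, to which MPO and PGLYRP1 belong, leaned to the 4-library side, 47.3% being at least 2-fold higher there whereas 12.1% leaned at least 2-fold the other way. Of the 10225 rows with an overall mean of at least 10, 12.3% were at least 2-fold and 3.81% at least 4-fold higher on the 4-library side, and 9.59% were at least 2-fold higher on the other.

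**Figure D1:**
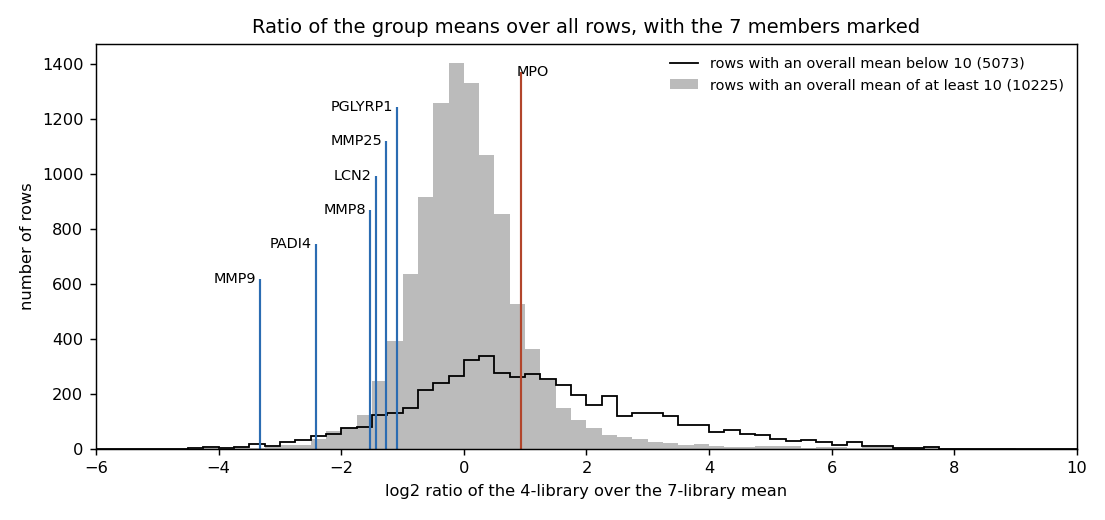
Number of rows of the table (y axis) by their log2 ratio, 4-library over 7-library mean (x axis), as grey bars for rows with an overall mean of at least 10 and as a black outline for weaker rows, with vertical lines at the 7 genes. MMP9 lies farthest to the left at -3.32, PADI4 follows at -2.41, and MPO alone lies to the right of 0, at 0.92.

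MMP9 encodes gelatinase B, the defining enzyme of tertiary granules, which degrades denatured collagen and basement membrane collagen. In the 4-library group, 42, 90, 72 and 28 reads of MMP9 (XM_004370553.1) were recovered in the libraries of size factor 1.56, 1.03, 0.620 and 0.372. These correspond to 26.9, 87.6, 116 and 75.3 normalized counts, with a mean of 76.5 ± 37.2 (SD, n = 4). The deposited 7-library mean was 762 normalized counts, 9.97 times the 4-library mean. The highest of the 4 libraries reached 15.2% of the 7-library mean. Only 0.275% of all rows had a lower log2 ratio than MMP9. The spread of the 7 libraries was not recovered, and a single library would need 5337 normalized counts to give this mean alone.

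MMP25 encodes a membrane-anchored metalloproteinase known as leukolysin, found in neutrophil granules and at the cell surface. Recovered reads of MMP25 (XM_004373418.1) were 11, 14, 5 and 0 in the 4 libraries in order of falling size factor. These gave 7.06, 13.6, 8.06 and 0 normalized counts, with a mean of 7.19 ± 5.60 (SD, n = 4), and the library at 0 had a floor of 8.07 normalized counts (3 reads). The 7-library mean was 17.4, or 2.42 times the 4-library mean. All 4 libraries lay below the 7-library mean, the highest at 78.5% of it. The means differed by 10.2 normalized counts, and without the library of size factor 0.372 the log2 ratio moved from -1.27 to -0.86, which is under 2-fold.

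Secondary granules were represented by MMP8, LCN2 and PGLYRP1. LCN2 encodes lipocalin 2, which withholds iron from bacteria by binding their siderophores. From the largest to the smallest size factor, 71, 88, 78 and 10 reads of LCN2 (XM_004375828.1) were recovered. They gave 45.5, 85.7, 126 and 26.9 normalized counts, with a mean of 71.0 ± 44.0 (SD, n = 4). The 7-library mean was 192, or 2.71 times the 4-library mean. The library of size factor 0.620 was the highest, at 65.3% of the 7-library mean, and the highest library exceeded the lowest 4.67 times.

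MMP8 encodes neutrophil collagenase, which cleaves fibrillar collagen. MMP8 (XM_004385859.1) had a 4-library mean of 131 and a 7-library mean of 380 normalized counts, a fold of 2.90. Its 4-library mean was too high for a single solution, since 4 combinations of whole reads gave it. In 3 of these combinations each of the 4 libraries lay below the 7-library mean, with highest values of 222, 271 and 318 normalized counts. In the remaining one a single library reached 407. Which combination is the true one is not known, so no spread is given for MMP8.

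PGLYRP1 encodes a peptidoglycan recognition protein that binds bacterial cell walls and is stored in specific granules. It was close to the detection limit in these libraries. PGLYRP1 (XM_004381789.1) had 2 reads in the 4-library group, both in the library of size factor 1.03. In the 7-library group it had 2, 2 and 3 reads in the libraries of size factor 1.73, 1.10 and 0.702 and none in the other 4. The group means were 0.487 ± 0.974 (SD, n = 4) and 1.03 ± 1.60 (SD, n = 7) normalized counts. The groups overlapped completely, and the difference was not past the threshold (exact two-sided permutation test over 330 splits, p = 0.848, adjusted p = 0.961 with Benjamini-Hochberg adjustment over the 4400 rows with reads of all 11 libraries). With summed reads over summed size factors, the 4-library level was 0.682 times the 7-library level, with a 95% exact interval of 0.0691 to 3.58. Without the library of size factor 0.702 the log2 ratio moved from -1.09 to -0.02, so the fold of 2.12 between the means rested on 3 reads, and a difference was not detectable at this depth.

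MPO encodes myeloperoxidase, the most abundant enzyme of primary granules, which makes hypochlorous acid. Its gene is known to be transcribed mainly in promyelocytes. MPO (XM_004377883.1) also had few reads, namely 0, 5, 3 and 3 in the 4 libraries in order of falling size factor. The 7 libraries held 2, 9, 6, 4, 1, 0 and 0 reads in the same order. The normalized counts ranged from 0 to 8.07 in the 4 libraries (median 4.85) and from 0 to 5.88 in the 7 libraries (median 1.16). Means were 4.44 ± 3.33 (SD, n = 4) and 2.34 ± 2.43 (SD, n = 7), and the groups overlapped. The difference was not past the threshold (exact two-sided permutation test, p = 0.285, adjusted p = 0.610 over the same 4400 rows). From summed reads, 11 and 22, the 4-library level was 1.19 times the 7-library level, with a 95% exact interval of 0.522 to 2.57. Intervals and floors cover counting error only. Of the 4400 rows, 15.0% had an unadjusted exact p under 0.05. Complete separation, which neither MPO nor PGLYRP1 showed, was found in 2.82% of them with the 4 libraries above and in 0.0455% with the 4 libraries below. Reads could be recovered up to a mean of 100 in the 4 libraries and of 6 in the 7, so these rows include genes high in the 4 libraries and leave out genes high in the 7, and the shares of the 4400 rows are not those of the whole table.

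PADI4 (XM_004377202.1) had 47, 32, 10 and 7 recovered reads in order of falling size factor. These gave 30.1, 31.2, 16.1 and 18.8 normalized counts, with a mean of 24.1 ± 7.70 (SD, n = 4), and the highest library exceeded the lowest 1.93 times. The 7-library mean was 128, or 5.33 times the 4-library mean, and the highest of the 4 libraries reached 24.3% of it. PADI4 had the narrowest relative spread of the 4 genes with recovered reads in all 4 libraries and an overall mean of at least 10, and 1.13% of all rows had a lower log2 ratio. For MMP9, MMP25, LCN2 and PADI4 alike, each of the 4 libraries lay below the 7-library mean, as was the case for 27.1% of the 5046 rows with recovered reads and an overall mean of at least 10, which leave out genes with a 4-library mean above 100.

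**Figure D2:**
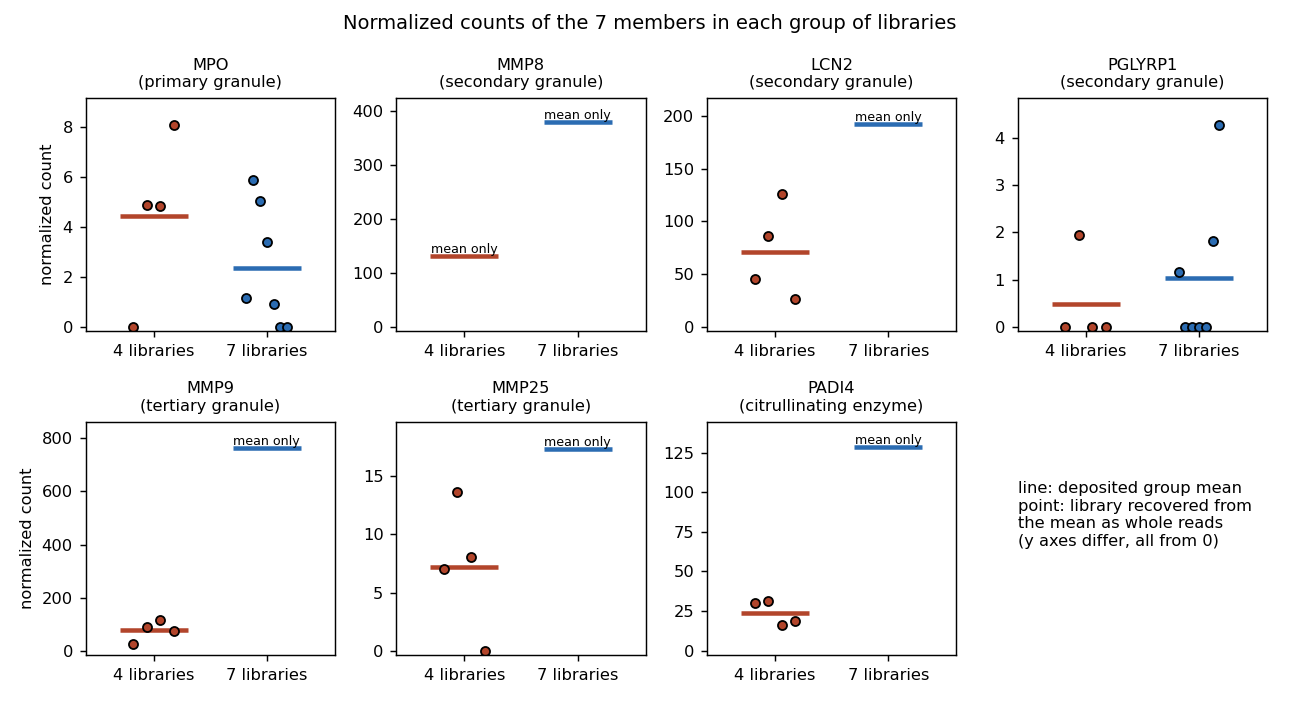
Normalized counts (y axes, each from 0) of the 7 genes in the 4-library and 7-library groups, with lines at the deposited group means and points for libraries whose reads were recovered. The 4 libraries of MMP9 lie between 26.9 and 116 under a 7-library mean of 762, while the points of MPO and PGLYRP1 overlap between the groups.

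The order of the 4 libraries differed between genes. MMP9 and LCN2 were highest in the library of size factor 0.620, at 116 and 126 normalized counts. PADI4 was lowest in that same library, at 16.1 (10 reads). The library of size factor 0.372 was close to it, at 18.8 (7 reads), and these reads are too few to rank the libraries. MMP25 was highest in the library of size factor 1.03, at 13.6. The chemokine receptor genes CXCR2 and CXCR1, markers of mature neutrophils, were highest in the library of size factor 0.620, at 168 and 122 normalized counts against 9.62 to 43.0 in the others. With 4 libraries this is a description only.

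**Figure D3:**
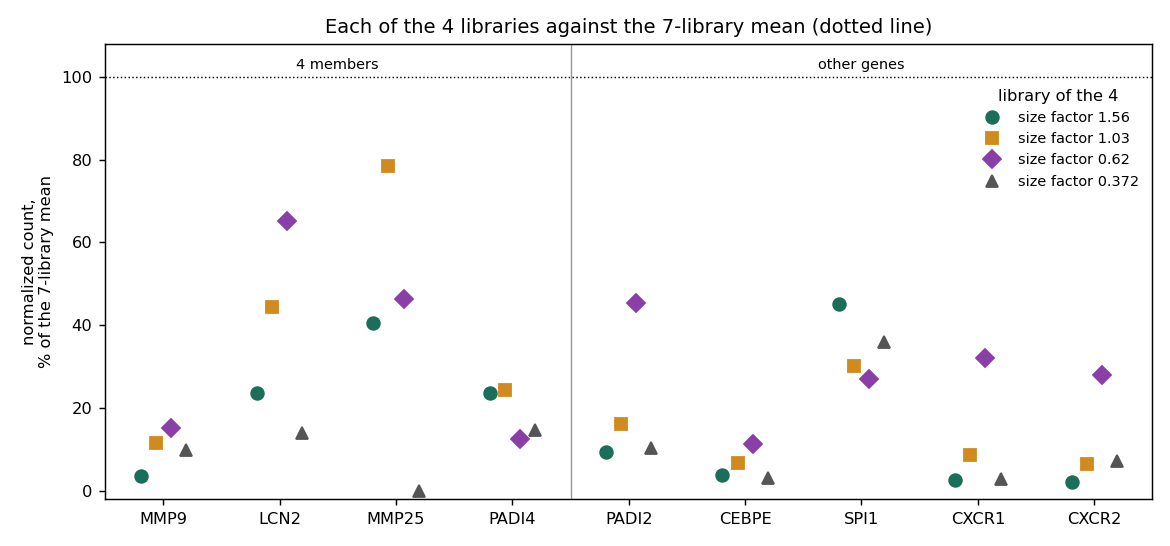
Normalized count of each of the 4 libraries as a percentage of the 7-library mean (y axis, dotted line at 100%) for 4 of the 7 genes and, right of the grey line, for 5 other genes (x axis), with a symbol for each library by size factor. The library of size factor 0.620 is the highest for MMP9, LCN2, PADI2, CEBPE, CXCR1 and CXCR2 and the lowest for PADI4 and SPI1.

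The genes with the most similar distribution over the 4 libraries were sought among 2826 others with a symbol and at least 50 recovered reads, by Euclidean distance between the shares of normalized counts. For LCN2 they were RABGAP1L (distance 0.0260), SCLY (0.0324) and PEF1 (0.0326). For MMP9 they were LOC101341860 (0.0138), PDE7B (0.0339) and ZACN (0.0374), and for PADI4 they were HMCES (0.0266), ACYP1 (0.0298) and CASK (0.0300). For MMP25 NOP10 (0.0517), STEEP1 (0.0725) and CSNK1G3 (0.0810) came closest among 2827 genes. The log2 ratios of these genes between the group means ran from -1.02 for RABGAP1L to 0.87 for LOC101341860. Each gene named as alike had a higher log2 ratio than the gene it was compared with, for example -1.02 for RABGAP1L against -1.44 for LCN2 and -0.67 for CSNK1G3 against -1.27 for MMP25. Of all rows, 99.7% had a higher ratio than MMP9, 98.9% than PADI4, 94.9% than LCN2 and 93.3% than MMP25. Nearly any row would therefore have a higher ratio, and this says nothing particular about the alike genes.

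The 10 pathway lists held 42 further genes with a row, both granule genes and others such as metalloproteinases and their inhibitors. Of these, 5 had a 7-library mean at least 2-fold higher, against 10.4% of all rows. A 4-library mean at least 2-fold higher was found for 15, against 23.9% of all rows and 47.3% of those with an overall mean below 10. Of the 15, 3 had an overall mean of at least 10. Among the other granule genes the direction was not shared throughout. Of the 12 primary granule genes listed, 5 had a row, among them MPO, AZU1 and the lysosomal enzymes CTSD and GUSB, which are also expressed outside neutrophils. CTSD and GUSB had log2 ratios of -0.93 and -0.91, both within 2-fold. AZU1, an antimicrobial protein of azurophil granules, had 6 reads in the 4 libraries and 3 in the 7. ELANE, PRTN3 and CTSG, the serine proteases that define primary granules, had no row with their symbol and were not analysed here.

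Among the other secondary granule genes, LYZ (lysozyme) had means of 1243 in the 4-library and 1839 in the 7-library group, a log2 ratio of -0.57, and CHI3L1 had -0.53. OLFM4, which marks a subset of neutrophils, had the opposite direction, with means of 14.5 and 2.08. Its reads in the 4 libraries were 0, 10, 30 and 0, and 1 of the 7 libraries gave 13 of their 17 reads (exact two-sided permutation test, p = 0.388, adjusted p = 0.712 over the 4400 rows). Of the 7 listed genes with a row, 3 were at least 2-fold higher in the 7-library mean, all of them among the 7 genes described here, and 2 were at least 2-fold higher in the 4-library mean, OLFM4 and RETN, whose 8 reads in the 4 libraries all came from 1 library. LTF, CAMP, CRISP3 and HP (haptoglobin) had no row with their symbol and were not analysed here. The study lists HP among the genes with its largest fold changes, in the same direction as MMP9. The counts for this list therefore cover only genes found by symbol.

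Of the 10 tertiary granule genes, 6 had a row. SLC11A1, a metal transporter of phagocyte granule membranes, had means of 19.9 and 42.5, a log2 ratio of -1.10. PLAUR, the urokinase receptor, differed most in the other direction, with a 4-library mean of 599 and a 7-library mean of 103, or 5.81 times higher in the 4 libraries. CFP (properdin) was near equal, with means of 408 and 399. The tertiary granule list thus held 3 genes at least 2-fold higher in the 7-library mean (MMP9, MMP25 and SLC11A1) and 2 at least 2-fold higher in the 4-library mean (PLAUR and ARG1, the latter with 6 reads in the 4 libraries and 7 in the 7).

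The metalloproteinase family split in a similar way. Of 23 listed genes, 15 had a row, of which MMP9, MMP8, MMP27 and MMP25 had a 7-library mean at least 2-fold higher and 6 a 4-library mean at least 2-fold higher. The latter were MMP1, MMP28, MMP15, MMP23B, MMP20 and MMP11, and apart from MMP1 each had an overall mean below 10, where 47.3% of all rows had this direction. MMP1, the interstitial collagenase of fibroblasts and activated macrophages, had 19, 35, 79 and 4 reads in the 4 libraries, or 12.2, 34.1, 127 and 10.8 normalized counts. In the 7 libraries MMP1 had 2 reads, in 2 libraries. The lowest of the 4 libraries lay above the highest of the 7, which 2.82% of the 4400 rows with reads of all 11 libraries showed. The exact two-sided permutation p was 0.00606, the smallest that 4 against 7 libraries can give, and the adjusted p was 0.212 over the 4400 rows. From summed reads the level of MMP1 was 163 times higher in the 4 libraries, with a 95% exact interval of 44.4 to 1363, counting error only. MMP1 was named for the size of its ratio and reached an overall mean of 10 only through the 4 libraries. Its p-value and interval come from the same values and are a description, not a test. MMP1, MMP8, MMP20 and MMP27 are related sequences, and multi-mapping reads were discarded by the authors, so reads shared between close copies may be missing from each.

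**Figure D4:**
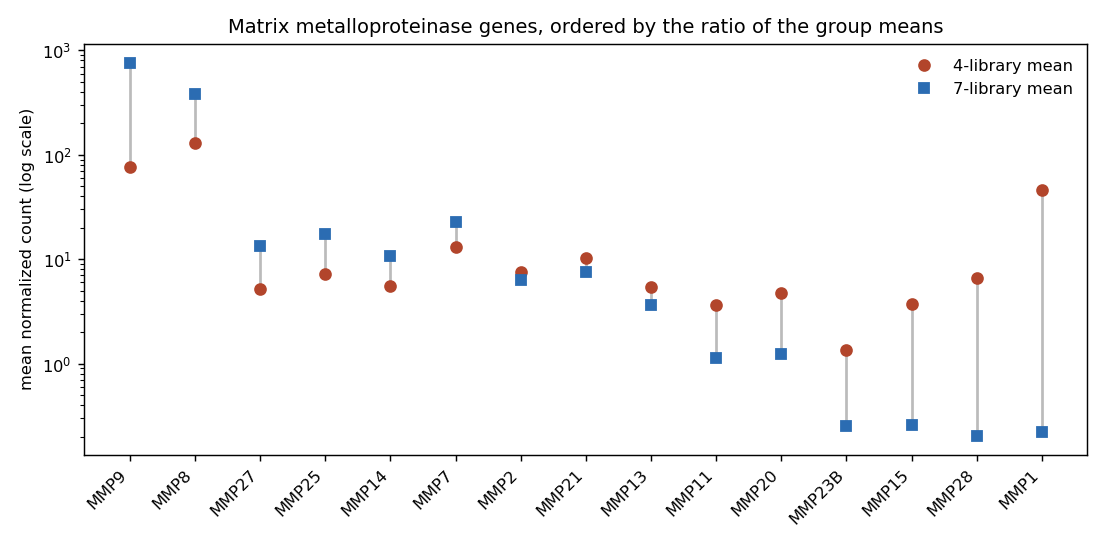
Mean normalized counts (y axis, log scale) of the 15 metalloproteinase genes with a row, ordered along the x axis by the ratio of the 4-library mean (circles) to the 7-library mean (squares). The 7-library mean of MMP9 is 9.97 times the 4-library mean at the left end, the 4-library mean of MMP1 is the higher one at the right end, and heights of different genes are not comparable because counts are not corrected for length.

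Of the inhibitors of metalloproteinases, TIMP1 had means of 177 in the 4-library and 114 in the 7-library group, a log2 ratio of 0.64. TIMP3, TIMP4 and RECK had overall means below 10. None of the 4 inhibitor genes with a row was at least 2-fold higher in the 7-library mean.

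PADI2, a family member of PADI4 that is also expressed in myeloid cells, had 15, 17, 29 and 4 reads in the 4 libraries. These gave 9.62, 16.5, 46.7 and 10.8 normalized counts, and the 7-library mean of 103 was 4.93 times the 4-library mean of 20.9. Thus both deiminase genes with an overall mean of at least 10 were higher in the 7-library mean by close to 5-fold. PADI6, an oocyte gene, had 7 reads in the 4 libraries and 4 in the 7.

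Among the transcription factors of granule genes, CEBPE is required for secondary granule formation. Its log2 ratio of -4.01 was lower than that of any of the 7 genes. Its reads were 5, 6, 6 and 1 in the 4 libraries, or 3.21, 5.84, 9.67 and 2.69 normalized counts, and the 7-library mean of 86.4 was 16.1 times the 4-library mean of 5.35. SPI1, the factor PU.1 of myeloid cells, had means of 41.3 and 119, a fold of 2.89. CEBPA and CEBPB lay within 2-fold, with log2 ratios of -0.74 and 0.47. The 7 genes of granule exocytosis with a row all lay within 2-fold, from -0.82 for SYTL1 to 0.74 for RAB27A. SLC22A17, a receptor for lipocalin 2, had means of 20.4 in the 4-library and 4.57 in the 7-library group (exact two-sided permutation p = 0.0121, adjusted p = 0.264 over the 4400 rows). It reached an overall mean of 10 only through the 4 libraries, so these values too are a description.

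The labelled tissue was checked by markers of blood cells, and markers of white cells and platelets were present. Of 14 neutrophil markers 8 had a row, 6 of them at least 2-fold higher in the 7-library mean, with summed means of 6447 in the 4-library and 18937 in the 7-library group, a fold of 2.94. The folds of MMP8 (2.90), LCN2 (2.71) and MMP25 (2.42) were close to that of this sum, and those of MMP9 (9.97), PADI4 (5.33) and CEBPE (16.1) were larger. S100A9, a calprotectin subunit, had a log2 ratio of -2.70. Single markers ran from a log2 ratio of -3.19 for CXCR2 to 0.66 for FPR1. The 2 eosinophil markers with a row, EPX and IL5RA, were also higher in the 7-library mean, with summed means of 8.20 and 45.4. Of 6 platelet markers, 4 had a row, and their summed means were 10525 in the 4-library and 3401 in the 7-library group, the opposite direction. Monocyte markers summed to 983 and 1591, T and NK cell markers to 274 and 587, B cell markers to 433 and 541, erythroid markers to 184 and 488 and progenitor markers to 409 and 399. No marker with a row had a mean of 0, and their part in the ratios of the 7 genes was not tested.

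**Figure D5:**
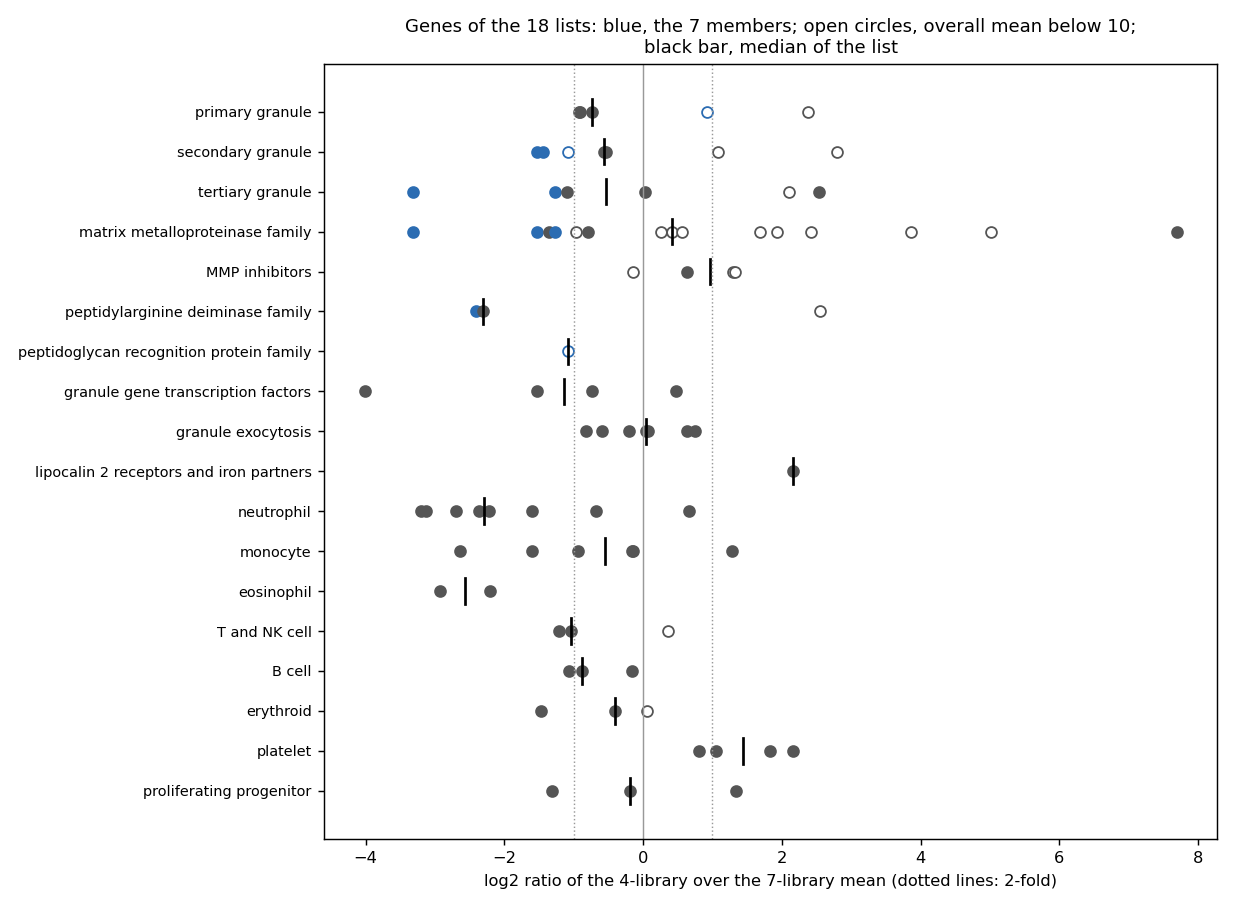
Log2 ratio, 4-library over 7-library mean (x axis, dotted lines at 2-fold) for each gene of 18 lists (y axis), with the 7 genes in blue, open circles for an overall mean below 10 and black bars at the list medians. The medians lie at -2.29 for neutrophil markers, -1.14 for granule gene transcription factors, 0.05 for granule exocytosis and 1.44 for platelet markers.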

How the data were processed

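The authors filtered reads with Cutadapt, mapped them to TriManLat1.0 with Bowtie2 (v. 2.2.3), discarded duplicate and multi-mapping reads, counted the rest for each gene sequence, divided the counts by DESeq size factors and averaged them over each group. Only these deposited means of normalized counts were used. The further columns hold the authors' own fold changes, p-values and adjusted p-values and were not used. Symbols were found for 10080 of the 15298 rows (65.9%), and 1658 records matched with their version number.

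Whole reads were searched in rows whose 4-library mean did not exceed 100, or whose 7-library mean did not exceed 6, and beyond this limit for the 4 libraries of MMP8. A single combination was found for 10119 of 10159 and 4417 of 4505 rows. In simulated data of 1468 and 1427 rows, a single combination was found for 100% and 99.2%, and it was the simulated one in 100% of these. A fold of 2 between means served as a call without a test, beside its share of all rows. Exact permutation tests over 330 splits were two-sided. Replicates are separate animals per the methods. Adjustment over the members alone, foreseen in the design, is not reported, because the members, the gene lists and the rules were chosen with earlier results of these data known. MMP9, HP, CXCR1 and CXCR2 had also been singled out by the study on these samples. Genes named beside the members are, per pathway list, up to 3 with the largest absolute log2 ratio and an overall mean of at least 10, per marker list up to 2 with the highest overall mean, and the 3 most alike over the 4 libraries. Some genes that this rule names are not reported here. AZU1, CHI3L1, OLFM4, RETN, SLC11A1, CFP, ARG1, the weak metalloproteinase genes, MMP27, TIMP3, TIMP4, RECK, PADI6, CEBPB, CXCR1, CXCR2 and FPR1 were named after their values were seen. Python 3.11.15, numpy 2.4.6 and scipy 1.17.1 were used.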

Additional observations from a re-analysis of the deposited data

Results flagged for a closer look

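Of 8 groups of libraries with recovered reads, 2 held a value far from the others, both of PGLYRP1. In the 4-library group the library of size factor 1.03 had 1.95 normalized counts and the others 0, and in the 7-library group the library of size factor 0.702 had 4.27. These values rest on 2 and 3 reads. The rule flags about 1 in 20 groups by chance when values are normally distributed. A group with reads in 1 library alone is always flagged, so this rate does not hold for genes with so few reads.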

How the results depend on the processing

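A pseudocount of 1 cannot change the direction of a ratio, and centring on the median row was a shift of only -0.01. Neither setting therefore tests the direction for the 7 genes. Leaving out 1 library kept the direction wherever it could be run, which was for all 11 libraries of MPO, for 10 of PGLYRP1, for the 4-library group alone of MMP9, MMP25, LCN2 and PADI4, and for none of MMP8. For MMP9, MMP25, LCN2 and PADI4 the direction could not have turned, because each of the 4 libraries lay below the 7-library mean. MMP8 had a log2 ratio of -1.53 with the pseudocount and of -1.52 after centring. At a fold of 4, 2 of the 7 genes rather than 6 had the higher 7-library mean, and with records matched by version number 1 had it, since only PGLYRP1 was then left. For the 42 other genes with a row on the 10 pathway lists, the count higher in the 7-library mean went from 5 to 2 at a fold of 4 and to 0 with the version number. Their count higher in the 4-library mean went from 15 to 3 with an overall mean of at least 10 and to 8 with the version number. With these libraries left out in turn, log2 ratios lay between -3.59 and -3.04 for MMP9, -2.56 and -2.26 for PADI4, -1.87 and -1.17 for LCN2, -1.79 and -0.86 for MMP25, 0.47 and 1.34 for MPO, and -1.31 and -0.02 for PGLYRP1. PGLYRP1 reached -0.02 without the library of size factor 0.702 and -0.67 without any 1 of the 3 libraries at 0 in the 4-library group, was at -0.45 with the pseudocount, and had no value without the library of size factor 1.03, which held all its reads of that group. MPO reached 1.34 without the library of size factor 1.53 or that of 1.56, its lowest was 0.47 without that of 0.372, and it was at 0.25 with summed reads. No paired analysis was possible because the deposited table holds no column of a single sample, so replicate numbers cannot be linked to libraries. Depth limits MPO, PGLYRP1 and the weak metalloproteinase genes, and the spread of the 7 libraries stays unknown for the other 5 genes.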
